A study of Homo sapiens with 15 samples.

Results

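PF-543 and ABC294640, inhibitors of the 2 sphingosine kinases, were compared in C42B prostate cancer cells that also received enzalutamide. The compared groups held 6 of the 15 arrays of the series, and all 17687 genes that had a value under a single gene symbol were tested. The differences come from these 6 arrays, while their errors and p-values rest on a spread pooled over all 15. The groups were 3 arrays of 10 µM enzalutamide with 15 µM PF-543 and 3 arrays of 10 µM enzalutamide with 15 µM ABC294640, each after 6 h. Both inhibitors were thus set against each other at the same dose and time, as 1 pair of compounds. How strongly each blocked its enzyme at that dose was not measured on these arrays. The other 9 arrays held DMSO vehicle at 0.125% (3 arrays), 10 µM enzalutamide (2 arrays), 15 µM PF-543 (3 arrays) and 15 µM ABC294640 (1 array), also at 6 h. A DMSO percentage is recorded for the vehicle arrays only. C42B is an established human prostate cancer line derived from LNCaP, and all wells held this line in medium with 10% serum.

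Sphingosine kinases add phosphate to sphingosine and make sphingosine 1-phosphate, a lipid that signals through its own surface receptors. PF-543 blocks the enzyme's form 1, encoded by SPHK1. ABC294640, also called opaganib, blocks form 2, encoded by SPHK2. Enzalutamide is a prostate cancer drug that blocks androgen signalling. Cells supply their own cholesterol through the mevalonate pathway, whose genes are switched on by SREBP transcription factors when sterol in the endoplasmic reticulum membrane is low. The protein INSIG1 holds SREBP and its escort SCAP in that membrane, and the INSIG1 gene is itself an SREBP target. A separate group of stress genes, among them ATF3, DDIT3 and TRIB3, responds when protein synthesis, amino acids or protein folding are disturbed.

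Values are log2 expression per gene, so a difference of 1 is a doubling, and a 95% interval is given beside the differences discussed. The 6 arrays were alike over all genes: arrays of the same combination correlated at 0.9959 to 0.9966 and arrays of different combinations at 0.9956 to 0.9968. Array medians over all probe sets lay between 6.72 and 6.76. Of 10 markers of prostate luminal cells, 8 had a value, with group means of 9.2 to 15.7. Group means reached at most 4.39 for basal, 5.56 for neuroendocrine, 6.2 for endothelial, 6.71 for leukocyte and 9.05 for fibroblast markers. No marker on the lists for basal, neuroendocrine, fibroblast, leukocyte or endothelial cells passed the test between the combinations. The labels name no separate cultures behind the replicates, and the p-values therefore describe the spread between these arrays, which could be technical.

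At equal dose, 17 genes differed between the 2 combinations, and 16 of them were higher with PF-543. The higher genes were led by INSIG1 and MSMO1 of cholesterol synthesis and by DDIT4, an inhibitor of the growth kinase mTORC1. They also held FASN and ACSS2 of fatty acid synthesis, the stress genes ATF3 and GDF15, the p53 target CDKN1A, and the FOXO targets TSC22D3 and CCNG2. The lower gene was SLC2A7, a sugar transporter with a dim signal. The differences ran from 1.45-fold to 2.47-fold, and 5 genes reached 2-fold.

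These calls come from limma's moderated test with Benjamini-Hochberg adjustment at 0.05, and they make up 0.0961% of the genes tested (0.0905% higher and 0.00565% lower). Before adjustment, 690 genes were higher (3.9%) and 585 lower (3.31%) at p under 0.05, where 884 in all would be reached by chance. The values of the combinations did not overlap in any of the 17 called genes, a state found in 12.4% of all genes (PF-543 above in 6.43% and below in 5.97%). The genes were called on these same arrays, so their lack of overlap follows largely from the call and is not separate support. An exact permutation test of 3 arrays against 3 cannot give a p below 0.1. That value is also the probability that groups of this size separate by chance. Leaving out any 1 of the 6 arrays lowered the count to between 3 and 8 genes: 3 without PF-543 combination replicate 2, 8 without PF-543 combination replicate 1 or ABC294640 combination replicate 1, and 4 without each of the others. Leaving out the 3 DMSO arrays, which only add to the estimate of the spread, gave 7. Over 15 other settings of the fit, INSIG1, MSMO1 and DDIT4 passed in all, IDI1 in 13, and each of the other called genes in 4 to 8. For CRYBA2 there were 14 settings, since leaving out dim genes removed it.

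**Figure D1:**
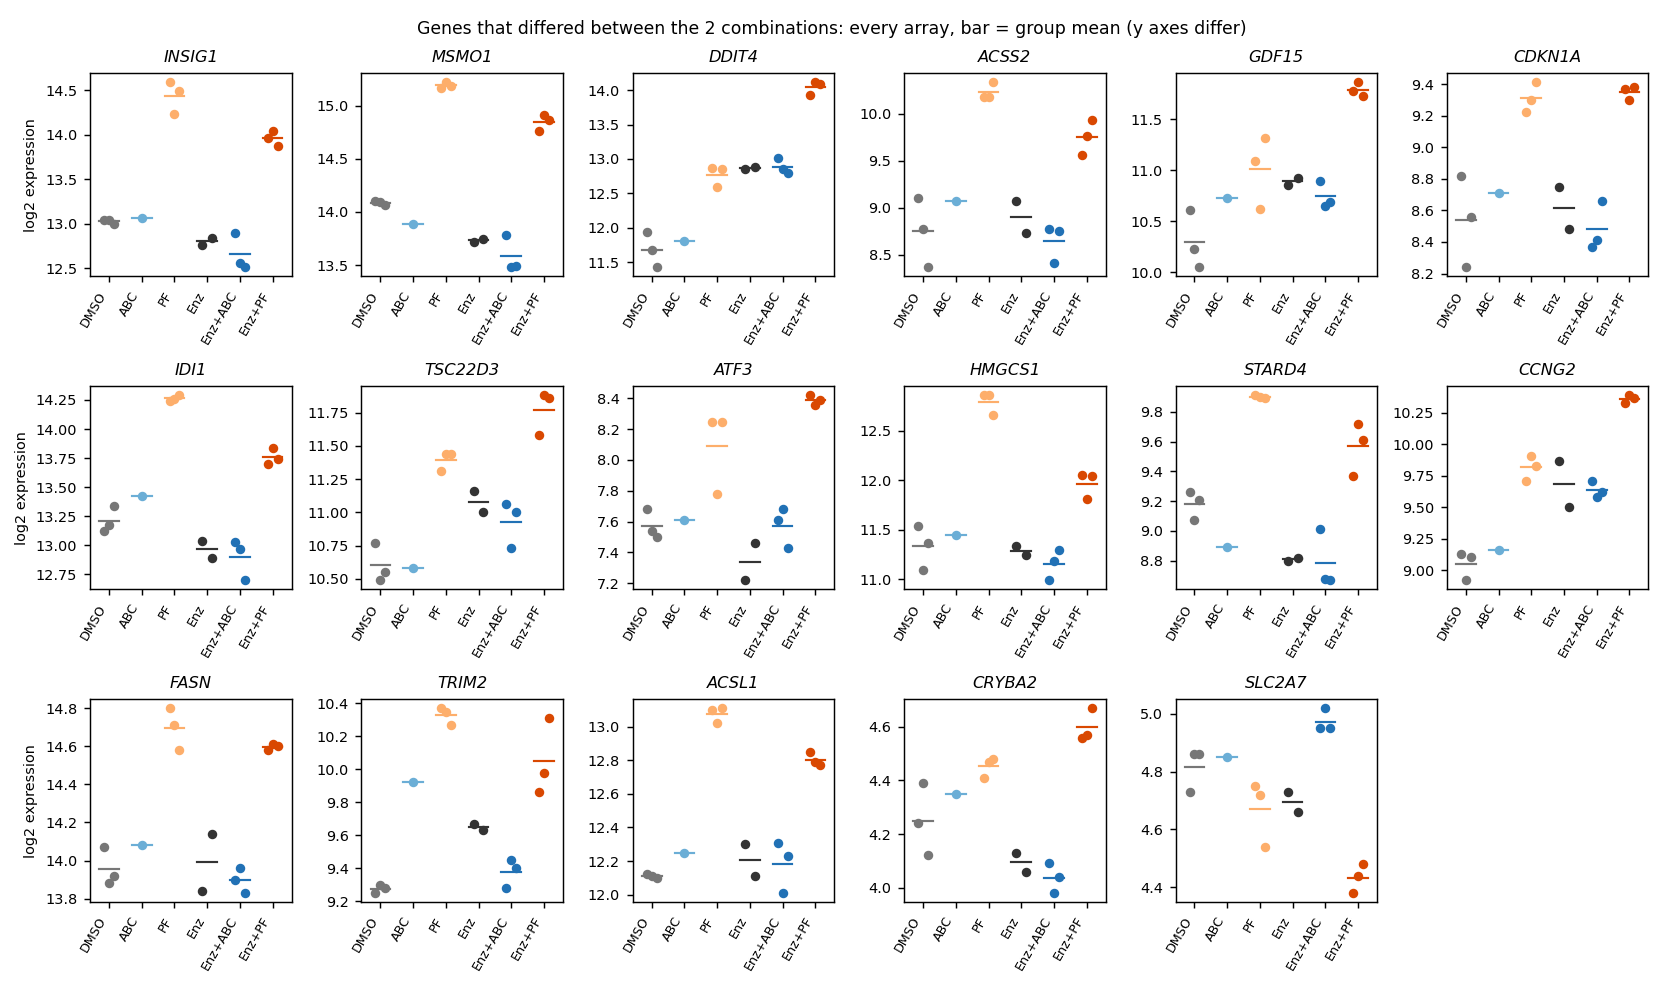
Log2 expression of the 17 called genes on every array, with points for arrays and a bar for each group's mean. Groups are DMSO, ABC294640 (ABC), PF-543 (PF), enzalutamide (Enz) and enzalutamide with ABC294640 (Enz+ABC) or PF-543 (Enz+PF). The y axes differ between genes and do not start at 0. In 16 genes the 3 Enz+PF points lie above the 3 Enz+ABC points, and in SLC2A7 below them.

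The regulators of the SREBP system come first in the cholesterol genes. INSIG1 (probe set TC0700009807.hg.1) stood at 13.96, 14.04 and 13.88 on the PF-543 combination arrays and at 12.89, 12.56 and 12.51 on the ABC294640 combination arrays. All 3 PF-543 values lay above all 3 ABC294640 values by about a full log2 unit. The mean was 13.96 ± 0.08 (SD, n = 3) against 12.65 ± 0.21 (SD, n = 3), a 2.47-fold difference (log2 1.31, SE 0.12, 95% interval 1.05 to 1.56, limma adjusted p = 0.000467). STARD4, a carrier protein that moves sterol between membranes, read 9.37, 9.72 and 9.61 with PF-543 and 9.01, 8.68 and 8.67 with ABC294640. The sets of values were again separate, and the difference was log2 0.78 (SE 0.11, adjusted p = 0.0292). The other SREBP regulators did not pass: SREBF2, which encodes the SREBP that drives cholesterol genes, differed by log2 0.28 (95% interval -0.00 to 0.56) and INSIG2, the relative of INSIG1, by 0.25 (-0.15 to 0.64). SREBF1, which was added after its values were seen, differed by -0.07 (-0.28 to 0.13). Of the 7 genes of SREBP control and sterol uptake with a value, 2 were higher and 0 lower with PF-543, and 5 did not pass.

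The mevalonate pathway turns acetyl-CoA into the building blocks of sterols, and 2 of its 8 genes with a value were higher with PF-543. IDI1, which interconverts the pathway's isoprene units, read 13.70, 13.84 and 13.74 with PF-543 and 13.03, 12.97 and 12.70 with ABC294640. The groups did not overlap, and the difference was log2 0.86 (SE 0.10, adjusted p = 0.00684). HMGCS1, which makes HMG-CoA at the head of the pathway, read 12.05, 11.81 and 12.04 against 10.99, 11.18 and 11.29. Its lowest PF-543 value was above its highest ABC294640 value, and the difference was log2 0.81 (SE 0.13, adjusted p = 0.0358). MVK and MVD, a kinase and a decarboxylase that act between these enzymes, differed by log2 0.51 (95% interval 0.12 to 0.90, adjusted p = 0.542) and 0.50 (0.07 to 0.92, adjusted p = 0.626). Neither passed, and in both the groups overlapped.

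Past squalene, MSMO1 was the gene that passed among 11 with a value. MSMO1 encodes an oxidase that acts in the removal of methyl groups from the sterol ring. Its probe set, TC0400009221.hg.1, stood at 14.76, 14.91 and 14.87 with PF-543 and at 13.78, 13.48 and 13.49 with ABC294640, with no overlap. The means were 14.85 ± 0.08 (SD, n = 3) and 13.58 ± 0.17 (SD, n = 3), a 2.40-fold difference (log2 1.26, SE 0.09, 95% interval 1.06 to 1.46). Its limma adjusted p of 9.36e-05 was the smallest of all genes. SQLE, which oxidises squalene, differed by log2 0.58 (95% interval 0.33 to 0.83, adjusted p = 0.172). LSS, which closes the ring, differed by 0.52 (0.29 to 0.75, adjusted p = 0.206). DHCR7, the last reductase of the pathway, differed by 0.44 (0.27 to 0.61, adjusted p = 0.0876). None of these 3 passed, although the PF-543 values lay above the ABC294640 values in each.

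Over the 3 sterol lists together, 26 of 32 genes had a value. Of these, 5 were higher (0.0905% of all genes) and 0 lower with PF-543. At an unadjusted p under 0.05, 13 were higher, against 3.9% of all genes. The difference was above 0 in 23 of the 26, against 50.6% of all genes. The median difference was log2 0.26, and over all 17687 genes it was 0.00333. These lists, like all 32, were chosen with earlier results of these data known. The shares therefore describe the lists and are not separate support.

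**Figure D2:**
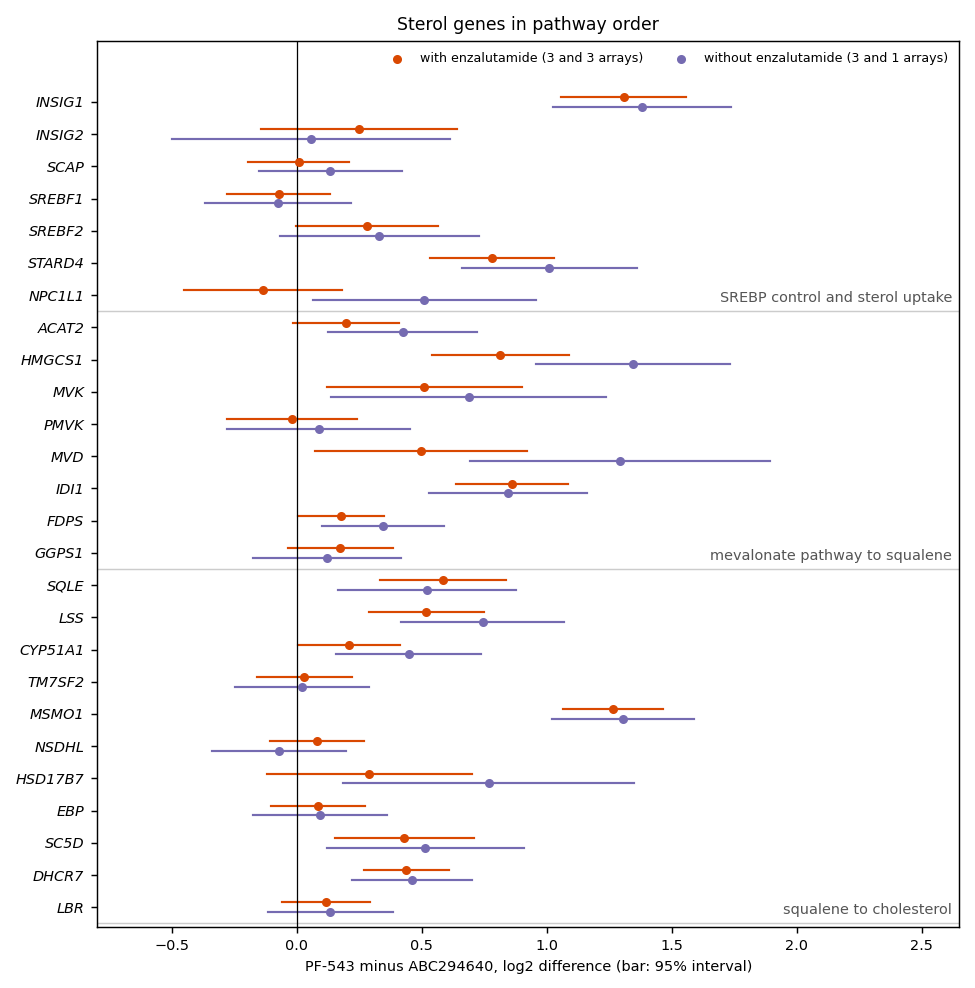
Log2 difference, PF-543 minus ABC294640, of the 26 sterol genes in pathway order, with 95% intervals as bars. Orange points compare the combinations with enzalutamide (3 and 3 arrays), and purple points compare the inhibitors alone (3 arrays and 1 array). INSIG1 and MSMO1 lie above 1 in both comparisons, while SREBF1 and SCAP lie near 0.

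SREBPs act on promoters together with general factors such as NF-Y, which binds the CCAAT box. The promoters of 3 called sterol genes and of the stress genes DDIT4 and ATF3 are shown, each of which holds a CCAAT box. The letters are the 250 bases before a single RefSeq transcription start per gene on GRCh38.p14, written 5′ to 3′ on the gene's own strand. Where a gene had several entries the first was taken, and which start these cells use was not tested. Capitals mark the CCAAT box (CCAAT, or ATTGG on the opposite strand) and, in ATF3, also the core of the ATF4 response element (TGATGNAA).
INSIG1: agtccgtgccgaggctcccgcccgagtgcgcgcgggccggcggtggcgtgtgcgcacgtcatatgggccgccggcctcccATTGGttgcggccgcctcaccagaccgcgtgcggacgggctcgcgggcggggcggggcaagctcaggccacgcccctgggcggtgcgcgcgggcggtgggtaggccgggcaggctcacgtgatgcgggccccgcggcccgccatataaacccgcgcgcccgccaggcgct
MSMO1: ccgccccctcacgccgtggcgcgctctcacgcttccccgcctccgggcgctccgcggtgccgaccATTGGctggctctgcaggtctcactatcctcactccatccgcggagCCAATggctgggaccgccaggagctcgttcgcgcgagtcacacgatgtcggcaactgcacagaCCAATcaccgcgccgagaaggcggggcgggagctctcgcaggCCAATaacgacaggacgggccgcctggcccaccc
HMGCS1: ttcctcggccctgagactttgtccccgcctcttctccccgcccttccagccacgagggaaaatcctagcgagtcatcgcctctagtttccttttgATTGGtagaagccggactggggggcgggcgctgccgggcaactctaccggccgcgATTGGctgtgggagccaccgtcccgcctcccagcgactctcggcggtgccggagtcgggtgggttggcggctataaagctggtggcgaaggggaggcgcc
DDIT4: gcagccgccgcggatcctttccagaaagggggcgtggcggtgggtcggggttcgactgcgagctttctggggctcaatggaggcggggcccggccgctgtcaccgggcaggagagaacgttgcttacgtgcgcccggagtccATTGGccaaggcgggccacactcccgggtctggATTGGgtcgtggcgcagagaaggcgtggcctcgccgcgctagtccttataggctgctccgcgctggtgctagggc
ATF3: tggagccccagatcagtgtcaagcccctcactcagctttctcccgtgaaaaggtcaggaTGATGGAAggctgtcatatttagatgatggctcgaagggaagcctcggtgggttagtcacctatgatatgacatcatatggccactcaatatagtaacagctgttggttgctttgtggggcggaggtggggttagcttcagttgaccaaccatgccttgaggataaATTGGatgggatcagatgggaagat
The windows are chr7:155297628-155297877 on the + strand for INSIG1, chr4:165327419-165327668 on the + strand for MSMO1 and chr5:43313413-43313662 on the - strand for HMGCS1. They are chr10:72273674-72273923 on the + strand for DDIT4 and chr1:212565157-212565406 on the + strand for ATF3.

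The MSMO1 window held CCAAT boxes that begin 185, 139, 76 and 34 bases before the start, that of HMGCS1 at 155 and 100, and that of INSIG1 at 170. DDIT4 held CCAAT boxes that begin 108 and 75 bases before the start. ATF3 held 1 at 25 and the ATF4 element core, as TGATGGAA, at 191. Of the 17 called genes, 15 matched a RefSeq promoter. A CCAAT box on either strand was present in 8 of these 15 (53.3%), in 16 of the 24 sterol genes with a promoter (66.7%), and in 33% of all 27305 RefSeq promoters of that length. The core of the sterol response element (TCACNCCAC, either strand) was present in 0 of the 15 called genes, in 1 of the 24 sterol genes and in 0.875% of all promoters. The ATF4 element core was present in 2 of the 15, ATF3 and TRIM2, and in 3.19% of all promoters. No motif searched was found in 6 of the 15, among them the called sterol gene IDI1, whose window is not shown. The motifs searched do not overlap one another in the 5 windows shown, and a match of letters is a description of the sequence.

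Fatty acid synthesis, which the SREBP1 form controls in many tissues, was the next list with called genes. ACSS2, which makes acetyl-CoA from acetate, read 9.56, 9.76 and 9.93 with PF-543 and 8.78, 8.41 and 8.75 with ABC294640. The groups were separate, and the 2.15-fold difference (log2 1.10, SE 0.17) had an adjusted p of 0.0358. FASN, the synthase that builds palmitate, read 14.58, 14.61 and 14.60 against 13.90, 13.96 and 13.83. Its PF-543 arrays lay within 0.03 of each other, and the difference was log2 0.70 (SE 0.10, adjusted p = 0.0292). ELOVL6, which lengthens palmitate, fell just short with log2 0.56 (SE 0.10, adjusted p = 0.0557), with no overlap. THRSP, a nuclear protein linked to lipid synthesis, differed by log2 0.74 with a wide interval (0.34 to 1.13) and an adjusted p of 0.366. Of 12 genes with a value, 2 were higher (0.0905% of all genes) and 0 lower, with a median of log2 0.28. At an unadjusted p under 0.05, 7 were higher, against 3.9% of all genes. This list too was chosen with earlier results of these data known.

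ACSL1, which links long-chain fatty acids to coenzyme A, belonged to no list and was also higher with PF-543. It read 12.85, 12.79 and 12.77 against 12.31, 12.01 and 12.23, a difference of log2 0.62 (SE 0.09, adjusted p = 0.0340) with no overlap. Among phospholipid enzymes and lipases, 0 of 13 passed in limma and 2 were higher at an unadjusted p under 0.05, against 3.9% of all genes. PCYT2, which activates phosphoethanolamine, differed by log2 0.46 (95% interval 0.19 to 0.72) and the lipase LIPG by 0.35 (0.02 to 0.68).

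DDIT4 was the third gene by size of difference. It encodes REDD1, which restrains mTORC1 under stress. Its probe set, TC1000007990.hg.1, read 13.93, 14.11 and 14.09 with PF-543 and 13.02, 12.86 and 12.79 with ABC294640, with no overlap. The 2.22-fold difference (log2 1.15, SE 0.13, 95% interval 0.88 to 1.43) had an adjusted p of 0.00396. On the other arrays DDIT4 stood at 11.43 to 11.94 with DMSO, 11.81 with ABC294640, 12.60 to 12.87 with PF-543, and 12.86 and 12.89 with enzalutamide. The PF-543 combination was thus the highest of the 6 groups, while the ABC294640 combination overlapped enzalutamide alone. Of the 8 genes on the list of mTORC1 brakes, DDIT4 passed as higher (0.0905% of all genes) and 7 did not. At an unadjusted p under 0.05, 1 was higher, against 3.9% of all genes. SESN3, a sestrin that senses nutrient stress, differed by log2 0.36 (-0.05 to 0.76) and SESN2 by 0.19 (-0.14 to 0.51).

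Among stress transcription factors, ATF3 was higher with PF-543. ATF3, a repressor and activator induced by many stresses, read 8.42, 8.36 and 8.39 against 7.61, 7.68 and 7.43. The groups were separate by more than the range within either, and the difference was log2 0.82 (SE 0.13, adjusted p = 0.0358). DDIT3 (CHOP), a death-promoting factor of the unfolded protein response, read 9.04, 9.53 and 9.31 against 8.76, 8.70 and 8.18. It did not overlap either, but its log2 0.75 (95% interval 0.33 to 1.17) did not pass (adjusted p = 0.396). TRIB3, a pseudokinase induced by ATF4 and CHOP, differed by log2 0.50 (0.17 to 0.83) and JDP2, a factor that pairs with ATF3, by 0.40 (-0.01 to 0.80). Of the 9 with a value, 1 was higher (0.0905% of all genes) and 0 lower, 4 were higher at an unadjusted p under 0.05 (3.9% of all genes), and the median was log2 0.37. That median lay between 0.23 and 0.39 over the settings tried. The list was likewise chosen with earlier results of these data known, so its shares are not separate support.

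GDF15, a secreted stress cytokine, read 11.78, 11.86 and 11.73 with PF-543 and 10.89, 10.65 and 10.69 with ABC294640. It was 2.07-fold higher (log2 1.05, SE 0.17, adjusted p = 0.0377) with no overlap. The other 8 secreted stress proteins did not pass, among them FGF21 at log2 0.23 (-0.13 to 0.60) and STC2 at 0.19 (-0.00 to 0.39). Of 9 glutathione and cystine genes 0 passed in limma and 1 was higher at an unadjusted p under 0.05, CHAC1, an enzyme that degrades glutathione (log2 0.41, adjusted p = 0.396). Of 14 transfer RNA synthetases 0 passed, 1 was higher at an unadjusted p under 0.05, and the list's median was log2 0.06. Of 19 unfolded protein response genes 0 passed, 2 were higher at an unadjusted p under 0.05, and the median was log2 0.07. Beside the counts of these lists, 3.9% of all genes were higher at that threshold.

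CDKN1A, which encodes the cyclin-dependent kinase inhibitor p21, read 9.37, 9.30 and 9.38 with PF-543 and 8.37, 8.41 and 8.66 with ABC294640. The difference was log2 0.87 (SE 0.14, adjusted p = 0.0358), with no overlap. CDKN1A was the called gene among 15 p53 targets with a value, where 0.0905% of all genes were called higher. At an unadjusted p under 0.05, 3 of the 15 were higher, against 3.9% of all genes. TP53INP1, a p53-induced nuclear protein, differed by log2 0.41 (0.09 to 0.72, adjusted p = 0.544), and MDM2, the ligase that degrades p53, by 0.21 (0.03 to 0.38, adjusted p = 0.631). The median of the p53 list was log2 0.09, and without ABC294640 combination replicate 3 it was -0.06.

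TSC22D3 and CCNG2 are targets of FOXO factors, which act when PI3K signalling is low. TSC22D3, also known as GILZ, read 11.58, 11.88 and 11.86 against 11.06, 10.73 and 11.00, a difference of log2 0.84 (SE 0.12, adjusted p = 0.0292). CCNG2, an atypical cyclin, read 10.33, 10.39 and 10.37 against 9.71, 9.58 and 9.62, a difference of log2 0.73 (SE 0.11, adjusted p = 0.0292). Neither gene's groups overlapped. KLHL24, an adaptor of a ubiquitin ligase, differed by log2 0.72 (0.37 to 1.07) and did not pass (adjusted p = 0.335). Of the 15 genes on the FOXO and PI3K list, 2 were higher (0.0905% of all genes), 0 lower and 13 did not pass, with a median of log2 0.08.

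The remaining called genes were on no list. TRIM2, a ubiquitin ligase, read 9.86, 9.98 and 10.31 with PF-543 and 9.28, 9.45 and 9.40 with ABC294640 (log2 0.67, SE 0.11, adjusted p = 0.0359). CRYBA2, a lens crystallin, read 4.56, 4.57 and 4.67 against 4.09, 3.98 and 4.04 (log2 0.56, SE 0.09, adjusted p = 0.0358). SLC2A7 read 4.38, 4.44 and 4.48 against 4.95, 5.02 and 4.95, lower by log2 -0.54 (SE 0.09, adjusted p = 0.0358). CRYBA2 and SLC2A7 were dim: only 18.4% and 26.3% of genes had lower means. The first quartile of all probe sets on these arrays, named or not, lay at 4.57 to 4.62. No probe set was judged against background here.

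**Figure D3:**
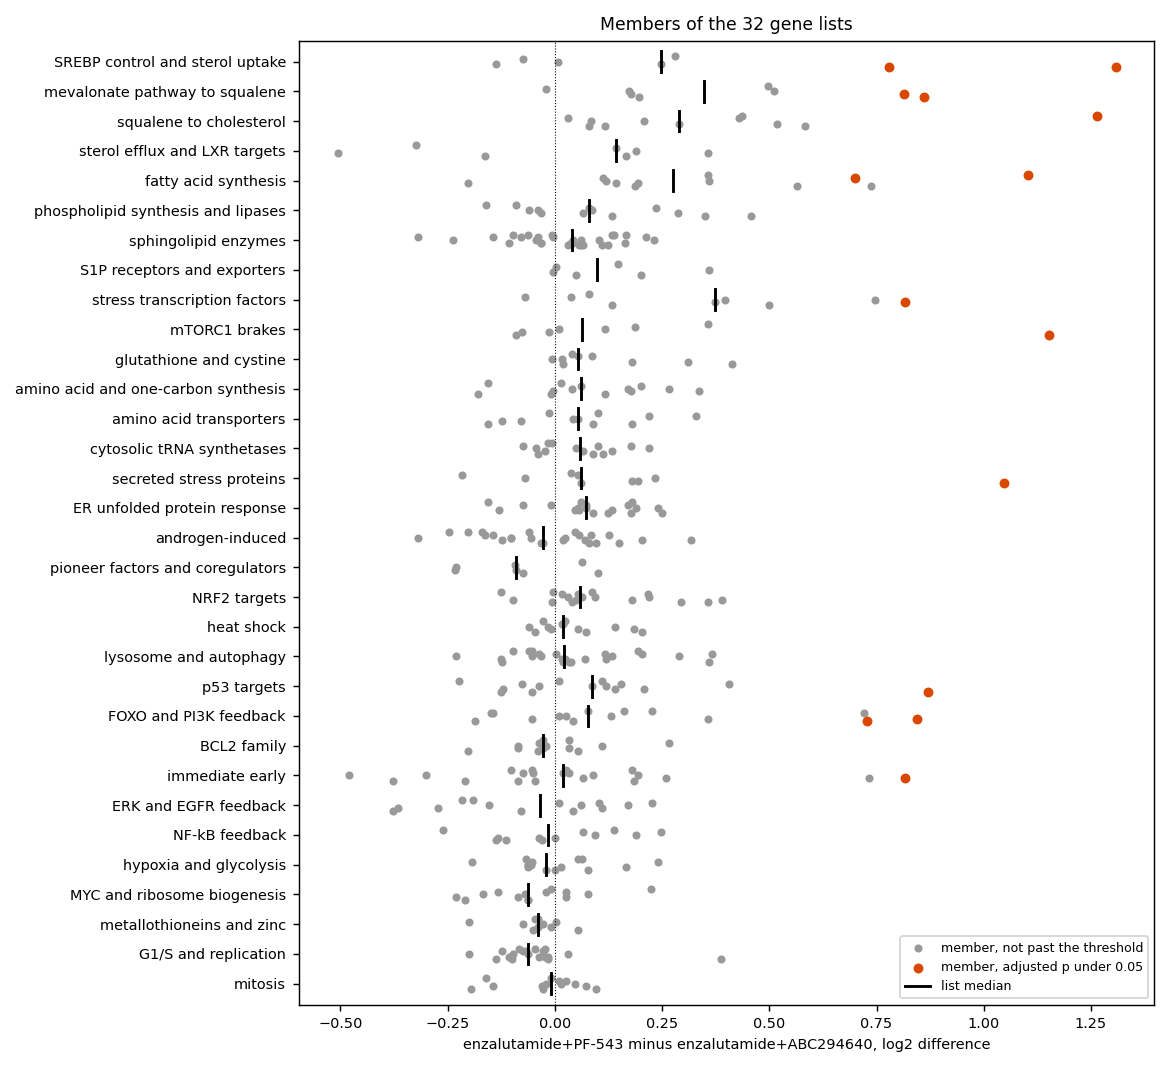
Log2 difference, PF-543 combination minus ABC294640 combination, of every member with a value in 32 gene lists. Grey points did not pass, orange points passed at an adjusted p under 0.05, and black bars are list medians. The called points belong to the sterol, fatty acid, stress, mTORC1, p53, FOXO and immediate early lists, with ATF3 drawn in 2 of them, and the sphingolipid and androgen rows lie around 0.

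No enzyme of sphingolipid metabolism, the pathway of the drugs' targets, passed between the combinations. SPHK1, the known target of PF-543, read 7.67, 7.72 and 7.87 with PF-543 and 7.91, 7.56 and 7.70 with ABC294640. The groups overlapped, and the difference was log2 0.03 (95% interval -0.24 to 0.30). SPHK2 is not analysed here. Of 30 sphingolipid enzymes with a value, 0 passed in limma and 1 was higher at an unadjusted p under 0.05, against 3.9% of all genes. It was ACER2, a ceramidase (log2 0.21, adjusted p = 0.679). The largest differences on this list were -0.32 for SGMS2, a sphingomyelin synthase, and 0.23 for KDSR, a reductase of ceramide synthesis. The 95% interval lay within 2-fold for all 30 and within 1.5-fold for 26, against 98.9% and 77.4% of all genes. Of 6 receptors and exporters of sphingosine 1-phosphate, 0 passed and 0 reached an unadjusted p under 0.05, with S1PR3 at log2 0.36 (-0.07 to 0.79).

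No androgen-induced gene passed between the combinations either. KLK3, which encodes prostate-specific antigen, read 15.69, 15.74 and 15.64 with PF-543 and 15.82, 15.66 and 15.67 with ABC294640, a difference of log2 -0.03 (95% interval -0.20 to 0.14). KLK2, its neighbour in the kallikrein family, differed by log2 0.07 (-0.18 to 0.32). Of 25 such genes 0 passed in limma, and C1orf116, at log2 0.32 (0.09 to 0.55, adjusted p = 0.527), was the 1 with an unadjusted p under 0.05. At that threshold 3.9% of all genes were higher and 3.31% lower. The interval lay within 2-fold for all 25 and within 1.5-fold for 21, against 98.9% and 77.4% of all genes. Among 7 pioneer factors and coregulators of the androgen response with a value, 0 passed, and GATA2, a pioneer factor, was the 1 with an unadjusted p under 0.05 (log2 -0.23, adjusted p = 0.662).

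Genes of DNA replication and the G1/S step did not pass. Of 19, 0 passed in limma and 1 was higher at an unadjusted p under 0.05, against 3.9% of all genes. The difference was below 0 in 17, with a median of log2 -0.06, while it was above 0 in 50.6% of all genes. The gene farthest from 0 was CCNE1, which encodes cyclin E1, at log2 0.39 (0.13 to 0.65, adjusted p = 0.494). The 95% interval lay within 1.5-fold for 18 of the 19, against 77.4% of all genes.

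The same pair of inhibitors was also set against each other without enzalutamide, at the same dose and time. Its differences come from other arrays than those with enzalutamide, while both comparisons share the spread pooled over all 15 arrays. It rests on 3 PF-543 arrays and 1 ABC294640 array, which was assumed to vary like the other groups, so its p-values carry no spread of that arm's own. All 17 called genes differed in the same direction as with enzalutamide, a state found in 49.8% of all genes, and 14 of them had an unadjusted p under 0.05, against 5.64% of all genes. In 15 of the 16 higher genes all 3 PF-543 arrays lay above the ABC294640 array, against 25.2% of all genes. After adjustment 3 genes passed with the pooled spread (0.017% of those tested): MSMO1, INSIG1 and HMGCS1. When only these 4 arrays were fitted, 0 passed.

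INSIG1 read 14.59, 14.24 and 14.49 with PF-543 and 13.06 with ABC294640 (log2 1.38, limma adjusted p = 0.0129). MSMO1 read 15.17, 15.22 and 15.19 against 13.89 (log2 1.30, adjusted p = 0.00384). HMGCS1 read 12.86, 12.86 and 12.66 against 11.45 (log2 1.34, adjusted p = 0.0295). In all 3 the ABC294640 array lay more than 1 log2 unit below every PF-543 array. The median over the 26 sterol genes was log2 0.45, against 0.26 with enzalutamide. Fatty acid genes had a median of log2 0.37, and stress transcription factors 0.06. Without PF-543 replicate 1 the count of called genes fell to 1.

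Whether the inhibitors' difference itself changed with enzalutamide was tested as an interaction, which rests on the same single ABC294640 array. In limma 0 of 17687 genes passed (smallest adjusted p = 0.315), and 1115 (6.3%) had an unadjusted p under 0.05; a robust and trended prior gave 1. For INSIG1 the difference of differences was log2 -0.07 (95% interval -0.51 to 0.36). For HMGCS1 it was -0.53 (-1.01 to -0.05, adjusted p = 0.730), the difference being smaller with enzalutamide. For GDF15 it was 0.77 (0.13 to 1.40, adjusted p = 0.729). GDF15 without enzalutamide read 11.09, 10.62 and 11.32 with PF-543 and 10.73 with ABC294640, so there its groups overlapped. Among the 17 called genes the smallest adjusted p for the interaction was 0.646.

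**Figure D4:**
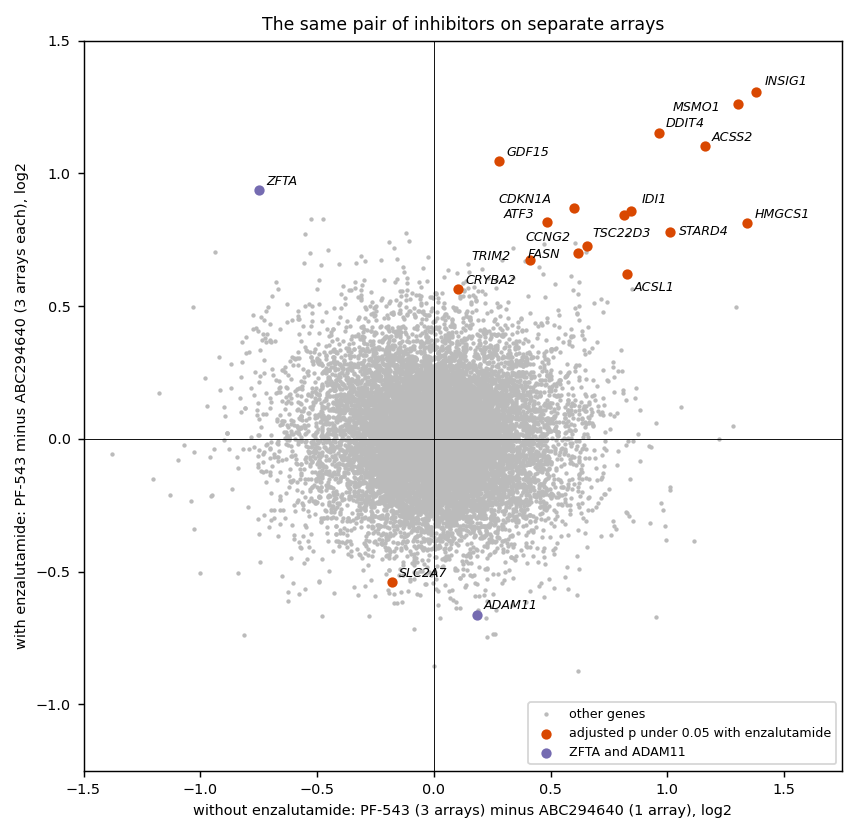
Log2 difference, PF-543 minus ABC294640, of 17687 genes with enzalutamide (y axis, 3 and 3 arrays) and without it (x axis, 3 arrays and 1 array). Orange points are the 17 called genes and purple points ZFTA and ADAM11. The called genes lie in the upper right and lower left parts of the plot, with GDF15, CRYBA2 and SLC2A7 nearest to 0 on the x axis.

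Each combination was also set beside enzalutamide alone, and these comparisons share the same 2 enzalutamide arrays and the arrays of the main comparison. With PF-543 added, 5 genes passed in limma (0.0283%), all higher: MSMO1 (log2 1.11, adjusted p = 0.00160), INSIG1 (1.16, 0.00656), DDIT4 (1.17, 0.0118), ATF3 (1.05, 0.0305) and IDI1 (0.80, 0.0413). At an unadjusted p under 0.05 there were 1385 genes (7.83%). Leaving out either enzalutamide array reduced the 5 calls at an adjusted p under 0.05 to 0, and leaving out a PF-543 combination array gave 1 to 3. With ABC294640 added, 0 genes passed (smallest adjusted p = 0.459), 1200 had an unadjusted p under 0.05 (6.78%), and a robust and trended prior gave 1. Over the 17 called genes the median difference from enzalutamide was log2 0.74 with PF-543 and -0.09 with ABC294640. These genes were chosen for the difference between the combinations, so a gap between these medians follows from that choice. With ABC294640 the differences ran from -0.27 to 0.28, and the 95% interval held 0 for 15 of the 17. The exceptions were TRIM2, at log2 -0.27 (-0.53 to -0.01), and SLC2A7, at 0.28 (0.07 to 0.49).

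Just outside the threshold lay 5 genes by p. ELOVL6 and DHCR7 are described above. ZFTA, a zinc finger translocation-associated gene, read 13.65, 13.99 and 14.41 with PF-543 and 13.13, 13.11 and 13.00 with ABC294640 (log2 0.94, SE 0.16, limma adjusted p = 0.0721). ADAM11, a member of the disintegrin family without protease activity, read 4.78, 5.14 and 4.73 against 5.68, 5.52 and 5.44 (log2 -0.66, SE 0.12, adjusted p = 0.0882). SULT1B1, a sulfotransferase, read 3.05, 3.08 and 3.16 against 3.46, 3.75 and 3.70 (log2 -0.54, SE 0.10, adjusted p = 0.107). ADAM11 and SULT1B1 were dim, with 32.4% and 4.03% of genes below them. The groups did not overlap in any of the 5. Over the same 15 settings ELOVL6 and ZFTA each passed in 3 and DHCR7 in 2, and ZFTA passed when PF-543 combination replicate 1 was left out.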

How the data were processed

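Values were the deposited log2 expression per probe set of an Affymetrix whole-transcript array. The authors made them with RMA in Transcriptome Analysis Console 4.02, per the submitters' processing notes; for the RMA variant, annotation and build, the sources used here give nothing. RMA draws arrays to a common distribution, so a shift shared by most genes would not show. Per the labels' protocols, 140000 cells in 2 ml were grown for 3 days, and 100 ng of RNA was labelled. Of 21448 probe sets, 17709 had 1 symbol and 3739 were unnamed here. Where 20 genes had several, the one with the highest mean was kept.

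limma 3.58.1 (R 4.3.3) fitted a mean per group to all 15 arrays, with 9 residual and 3.82 prior degrees of freedom, and p was adjusted over 17687 genes within each of 5 contrasts. The number of arrays limits the precision: the median 95% interval reached 0.306 log2 units to either side with enzalutamide and 0.433 without. Named were all called genes, the 5 nearest the threshold, up to 4 members of each list with the largest difference, SPHK1 and androgen response genes. The members, the 32 lists (422 of 472 genes with a value) and the rules were chosen with earlier results of these data known. Alternatives were other normalizations, filters, priors, weights, sample sets and a replicate block. Matplotlib 3.10.9 (Python 3.11.15) drew the figures.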

Additional observations from a re-analysis of the deposited data

Results flagged for a closer look

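ZFTA stood out because the inhibitors differed in opposite directions with and without enzalutamide, in every array. With enzalutamide the PF-543 arrays read 13.65, 13.99 and 14.41 and the ABC294640 arrays 13.13, 13.11 and 13.00. Without it the PF-543 arrays read 13.18, 13.18 and 13.42 and the ABC294640 array 14.01. The difference of differences was log2 1.69 (SE 0.28, limma adjusted p = 0.315) and did not pass.

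ADAM11 stood out for the same reason. With enzalutamide it read 4.78, 5.14 and 4.73 with PF-543 and 5.68, 5.52 and 5.44 with ABC294640, and without it 5.04, 5.21 and 5.36 with PF-543 and 5.02 with ABC294640. The difference of differences was log2 -0.85 (SE 0.21, limma adjusted p = 0.543) and did not pass. Its signal was dim, with 32.4% of genes below it. Without enzalutamide its lowest PF-543 value, 5.04, lay close to the ABC294640 value of 5.02. There, all 3 PF-543 arrays lay above the ABC294640 array in 25.2% of all genes. Only the called genes and the 5 just outside the threshold were screened for such opposite directions.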

How the results depend on the processing

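The 17 calls between the combinations became 28 with a robust and trended prior, 7 without the 3 DMSO arrays, 5 when at least 2-fold was required, 4 when only the 6 compared arrays were fitted, and 3 to 8 when 1 array was left out. Of the 28, 15 were among the 17. CRYBA2 and SLC2A7, the lower gene, lost their calls there (limma adjusted p = 0.265 and 0.307). Quantile and loess normalization gave 16 each, median centring 17, array weights 18, no dim genes 19 and all probe sets 22. The replicate numbers did not pair the arrays (correlations of deviations -0.028, -0.022 and -0.022), and with the replicate number as a block 4 genes passed. Without enzalutamide, the 3 calls became 5 without the dimmest 25% of genes, 5 over all probe sets, 18 with the robust and trended prior, 0 with only the compared arrays, and 1 to 3 when 1 array was left out. The interaction went from 0 to 1 with that prior, as did ABC294640 added to enzalutamide. The 5 calls for PF-543 added to enzalutamide became 47 with that prior, 8 without the dimmest genes, over all probe sets or with array weights, 3 without the DMSO arrays, 0 with only the compared arrays, and 0 to 3 when 1 array was left out. With the replicate number as a block they became 3. The single ABC294640 array could not be left out and carries no number to block on. Fits of fewer arrays have fewer residual degrees of freedom by construction, and otherwise the cause was not tested. Over the 15 settings refitted per gene, the 17 called genes kept their direction, except that CRYBA2 was left out with the dimmest genes.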

Other observations

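Of 14 genes on the list of ERK and EGFR feedback, 0 passed in limma. At an unadjusted p under 0.05, 3 were lower with PF-543, against 3.31% of all genes: SPRY2 at log2 -0.38, PHLDA1 at -0.37 and DUSP4 at -0.27. Of 21 immediate early genes, ATF3 passed as higher (0.0905% of all genes). JUND, an AP-1 subunit, stood at log2 0.73 (95% interval 0.37 to 1.10, adjusted p = 0.343) and KLF2, a zinc finger factor, at -0.48 (-0.92 to -0.04, adjusted p = 0.658).

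Of 7 genes of sterol efflux, 0 passed in limma and 1 was lower at an unadjusted p under 0.05, against 3.31% of all genes. The difference was above 0 in 4 and below 0 in 3, with a median of log2 0.14 and a highest value of 0.36. ABCG1, an exporter of cholesterol that is switched on when sterols are plentiful, read 5.37, 5.28 and 5.08 with PF-543 and 5.78, 5.85 and 5.62 with ABC294640, with no overlap (log2 -0.51, adjusted p = 0.402). Without enzalutamide it read 4.93, 5.15 and 5.06 with PF-543 and 6.05 with ABC294640. The ABCG1 values with enzalutamide lay below the array medians of 6.72 to 6.76. Of the 3739 unnamed probe sets, 5 passed between the combinations when all probe sets were tested (0.134%), and 277 had an unadjusted p under 0.05 (7.41%, against 6.97% of the named probe sets in that fit).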
